A study of Mus musculus with 8 samples.

Results

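The genes described here are 47 genes that cells use at the G1/S transition and in S phase, when DNA is copied. They were taken by gene symbol from the 45777 genes listed for 8 bulk RNA-seq libraries of mouse liver tumour organoids, and all 47 were found and tested. Organoids are 3-dimensional cultures, here grown from hepatocellular carcinoma related to metabolic steatohepatitis and labelled wild type (WT). The resistant group held 2 libraries, from lenvatinib-resistant derivatives of lines SNU-6624 and SNU-6625, whose treatment label is control. The lenvatinib group held 2 libraries, from SNU-6624 and SNU-6625 organoids treated with lenvatinib, a kinase inhibitor drug used against liver cancer that blocks VEGF and FGF receptors among others. The parental group held 4 untreated libraries, 1 from SNU-6621, 1 from SNU-6622 and 1 from each of the lines already named. Dose, duration of treatment, sex and age are not in the labels used here. Each line gave 1 library per group, so replicates of a group are different lines, and no library of a line was repeated.

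A cell prepares to copy its genome in G1, when origins of replication are licensed by loading the MCM2-7 helicase. At the G1/S transition, cyclin E with CDK2 releases E2F transcription factors from RB family proteins, and E2F proteins switch on many of the genes described here. In S phase the helicase is activated, polymerases copy both strands, short Okazaki fragments are joined on the lagging strand, deoxynucleotides are supplied and new DNA is packed into chromatin.

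Total counts ran from 49 to 61 M per library, and values are CPM, counts scaled to the total of their library, unless stated. A count of 3, the floor used for a value of 0, is 0.0492 to 0.0612 CPM and covers counting error only. The label of the tissue was set against marker genes. All 6 epithelial markers were above 10 CPM in all 8 libraries. Of 6 hepatocyte genes, Alb and Serpina1a were at 0 in all 8, and Ttr, Apoa1 and Afp were at most 1.45 CPM. The sixth, Hnf4a, a liver transcription factor, had 109.3 and 120.7 CPM in the resistant libraries, 5.59 and 10.9 CPM in the lenvatinib libraries and 91.0 to 148.9 CPM in the parental libraries. The marker lists for fibroblasts, endothelium, leukocytes and red cells each summed to at most 1.6 CPM in any library. Summed epithelial markers were 18023.3 and 19863.1 CPM in the resistant libraries, 4362.7 and 4746.4 CPM in the lenvatinib libraries and 9676.2 to 12715.6 CPM in the parental libraries. The 4 keratins of this list were lower in both lenvatinib libraries than in every parental library. Cdh1, by contrast, had 977.0 and 730.8 CPM in the lenvatinib libraries, against 606.5 and 651.6 CPM in the parental libraries of the same lines, and Epcam had 352.0 and 402.0 CPM, against 374.4 and 475.9 CPM. The part of these markers in the results was not tested.

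Within a group, values are given in the order of the line numbers. The members summed to 1263.6 and 288.3 CPM in the resistant libraries, 672.0 and 676.3 CPM in the lenvatinib libraries and 701.7, 679.3, 1290.9 and 1329.2 CPM in the parental libraries. Resistant SNU-6625 was the lowest of the 8 libraries, while resistant SNU-6624 stood beside its own parental library. Both lenvatinib libraries stood near the summed level of parental SNU-6621 and SNU-6622, and below their own parental libraries. Pcna alone gave 172.3 and 173.6 CPM of the lenvatinib sums, against 78.5 and 85.0 CPM in parental SNU-6621 and SNU-6622. Gene by gene, both lenvatinib libraries were below all 4 parental lines for 23 members, against 21.4% of all genes tested. For 3 members both were above all 4 lines, against 30.9%. These are bulk libraries, in which fewer cycling cells and less RNA per cycling cell cannot be told apart.

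**Figure D1:**
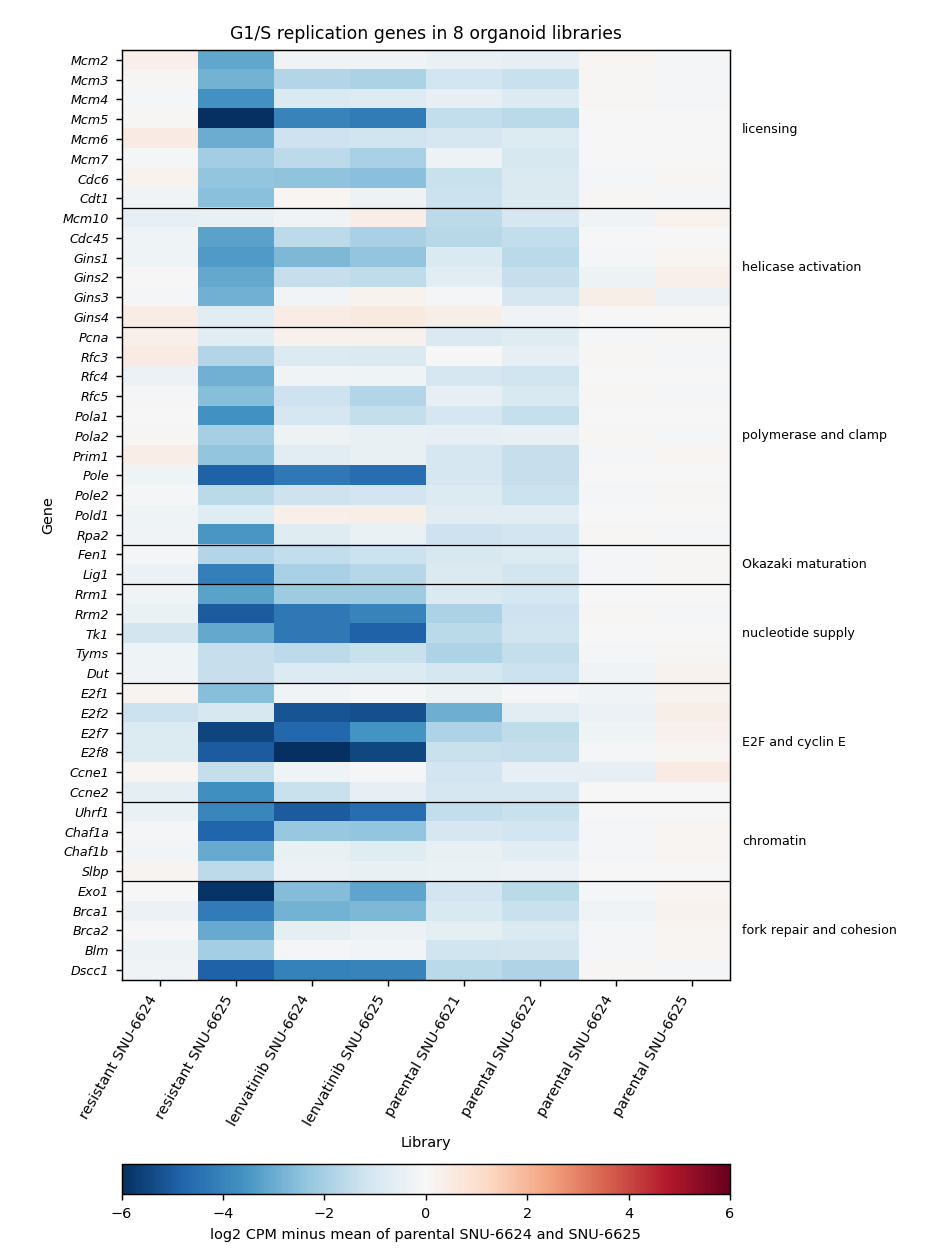
Heat map of the 47 genes (rows, grouped by role) in 8 libraries (columns). Colour is the log2 CPM of a library minus the mean of parental SNU-6624 and SNU-6625, with blue for lower values. Resistant SNU-6625 was the lowest of the 8 libraries for 39 of the 47 genes, and both lenvatinib libraries were low for some genes of each role.

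The spread between the lines SNU-6624 and SNU-6625 differed by group. The median fold between the 2 resistant libraries was 7.45 over the members, against 1.5 over the 17038 genes tested. Only 3 members, Mcm10, Pold1 and E2f2, lay within 1.5-fold there, or 6.38%, against 49.9% of all genes tested. The median fold between the lenvatinib libraries was 1.12 over the members and 1.16 over all genes tested, and 42 members lay within 1.5-fold, or 89.4%, against 75.6%. Between the parental libraries of the same lines the median fold was 1.11 over the members and 1.18 over all genes tested.

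The untreated lines gave the baseline. For 42 of the 47 members, both parental SNU-6624 and SNU-6625 were above both parental SNU-6621 and SNU-6622, as were 20.8% of all genes tested, with 1 library per line and no test. The exceptions were Gins3, Gins4, Rfc3, E2f1 and Ccne1. On TMM-scaled CPM, which corrects for differences in library composition, the highest parental line exceeded the lowest by 1.41-fold for Slbp, which binds the end of histone mRNA, and by 10.1-fold for E2f2. Rrm2 had a parental range of 25.6 to 106.3 with a median of 69.5 TMM-scaled CPM.

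Expression after lenvatinib was compared with that of the untreated parental organoids of the same 2 lines. The test was edgeR's quasi-likelihood test over 6 libraries with line as a term, and a gene was called at a Benjamini-Hochberg adjusted p under 0.05 over all 17038 genes tested. E2f2 and Tk1 fell, and no member rose, so 2 of 47 members were called lower, against 4.08% of all genes tested, and 0 of 47 higher, against 1.7%. The share called lower was close to that of all genes. The fitted log2 fold changes of the members ran from -5.92 for E2f8 to 0.42 for Gins4, with a median of -1.39, against -0.01 over all genes tested. Of the 47 values, 43 were negative, or 91.5%, against 50.4% of all genes tested, and 17 members had an unadjusted p under 0.05, or 36.2%, against 31.8%. The last of these shares is near that of all genes, and the counts by role at the same cut are read against 31.8% too. Both lenvatinib libraries were below both parental libraries of the 2 lines for 38 members, against 32.4% of all genes tested, and above both for 3, against 40.5%. Against all 4 parental lines, both lenvatinib libraries were below every line for 23 members, against 21.4% of all genes tested, and above every line for 3, against 30.9%.

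The number of calls differed between fits, and the cause was not tested. The fit above also held the resistant libraries. With the 4 lenvatinib and parental libraries alone, edgeR called 36 members lower, against 25.5% of the 16444 genes tested, and Gins4 higher, against 22.8%. DESeq2 on the 6 libraries called 20 members lower, against 13.7% of genes. Leaving out either parental or either lenvatinib library left no member called, with 4 to 22 members at an unadjusted p under 0.05, against 11.7% to 16% of all genes tested. Leaving out either resistant library gave 37 members called, against 43.3% of all genes with SNU-6624 left out and 43.7% with SNU-6625 left out.

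**Figure D2:**
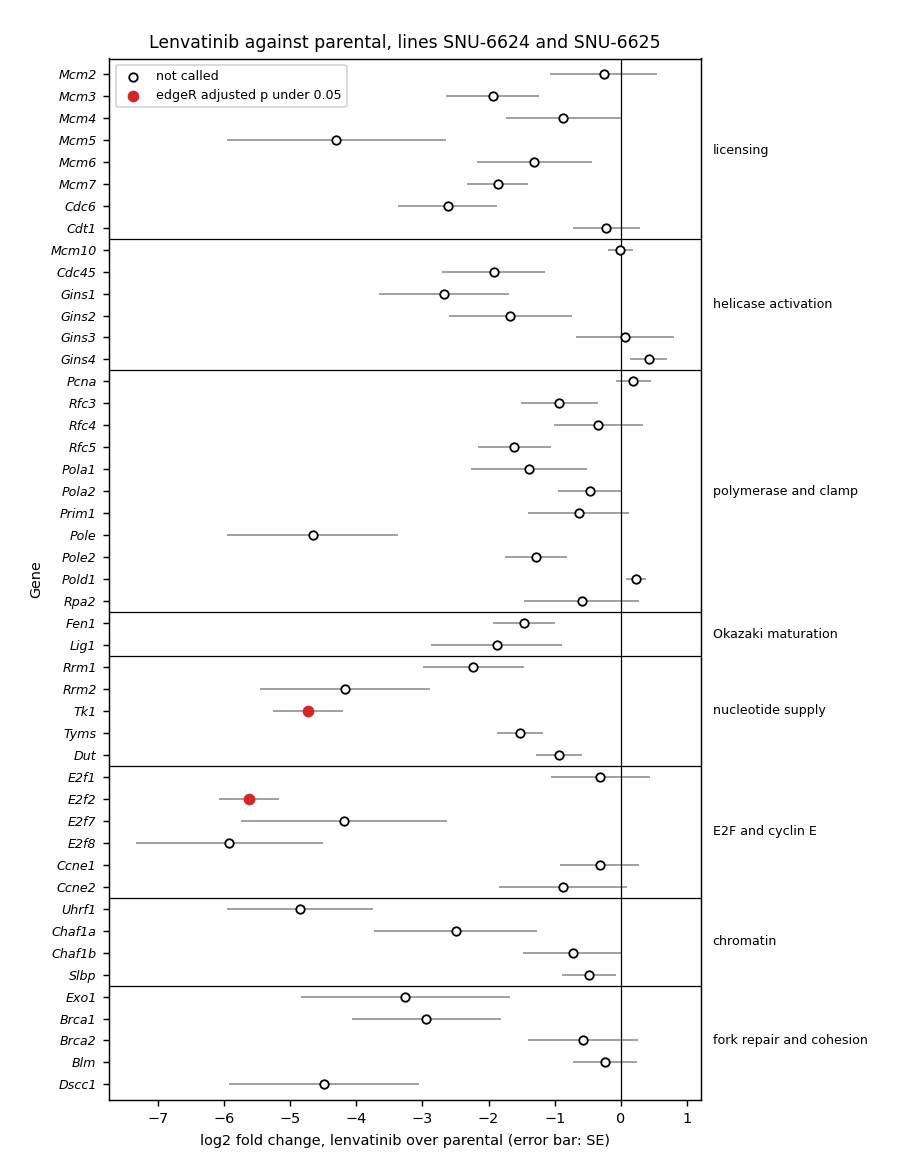
Fitted log2 fold change of each member (rows, grouped by role), lenvatinib over parental, in the edgeR fit to 6 libraries of SNU-6624 and SNU-6625. Points are estimates, bars are 1 SE, and filled red points mark adjusted p under 0.05, which E2f2 and Tk1 reached; 43 of 47 points lie below 0.

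The size of the difference split the members. In both lines, 15 members were at least 4-fold lower after lenvatinib, against 8.08% of all genes tested, and 26 were at least 2-fold lower, against 15.0%. The 15 were Mcm5, Cdc6, Gins1, Pole, Rrm1, Rrm2, Tk1, E2f2, E2f7, E2f8, Uhrf1, Chaf1a, Exo1, Brca1 and Dscc1. A further 14 members lay within 1.5-fold of parental in both lines, against 37.8% of all genes tested. These were Mcm2, Cdt1, Mcm10, Gins3, Gins4, Pcna, Rfc4, Pola2, Pold1, E2f1, Ccne1, Slbp, Brca2 and Blm. Subunits of MCM2-7, of GINS and of DNA polymerases stood in both sets.

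Licensing genes load the helicase. Their fitted log2 fold changes after lenvatinib were all negative, from -4.30 to -0.22 over 8 genes, with 0 called and 3 at an unadjusted p under 0.05, or 37.5%, near the 31.8% of all genes tested. Mcm5 (NCBI gene 17218, mm10 chr8:75109468-75128439), a subunit of the MCM2-7 ring, had 36.8 and 0.475 CPM in the resistant libraries, 2.09 and 1.88 CPM in the lenvatinib libraries and 12.2, 11.3, 33.8 and 35.3 CPM in the parental libraries. Both lenvatinib libraries and resistant SNU-6625 were thus below every parental library, while resistant SNU-6624 was above them all. The fitted log2 fold change after lenvatinib was -4.30 (SE 1.65), with an edgeR adjusted p of 0.162. Mcm6, another subunit, had 101.7 and 9.11 CPM in the resistant libraries, 30.9 and 31.7 CPM in the lenvatinib libraries and 36.8, 41.1, 72.9 and 73.1 CPM in the parental libraries. Cdt1, the loading factor that geminin restrains, had 20.0 and 3.97 CPM in the resistant libraries, 24.9 and 18.3 CPM in the lenvatinib libraries and 9.25, 12.7, 24 and 21.7 CPM in the parental libraries. For Cdt1 the lenvatinib and parental values of SNU-6624 and SNU-6625 overlapped. Cdc6, which loads MCM2-7 together with Cdt1, had a fitted log2 fold change of -2.62 (SE 0.75) and an edgeR adjusted p of 0.103.

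The MCM2-7 subunits form a ring with 1 copy of each, and their levels were compared per length, as RPKM (CPM per kilobase of exon). The highest subunit exceeded the lowest by 2.18-fold and 35.2-fold in the resistant libraries, by 22.6-fold and 24.7-fold in the lenvatinib libraries and by 4.74-fold, 3.37-fold, 2.17-fold and 1.97-fold in the parental libraries. Mcm5 was the lowest subunit in all 8 libraries. It had 10.6 and 0.137 RPKM in the resistant libraries, 0.604 and 0.543 RPKM in the lenvatinib libraries and 3.53, 3.28, 9.78 and 10.2 RPKM in the parental libraries. Mcm2 was the highest subunit in both lenvatinib libraries. It had 19.6 and 1.79 RPKM in the resistant libraries, 13.6 and 13.4 RPKM in the lenvatinib libraries and 11.8, 11.1, 17.3 and 14.2 RPKM in the parental libraries. Mcm2 in the lenvatinib libraries was within the range of the 4 parental lines, and Mcm5 was below it.

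**Figure D3:**
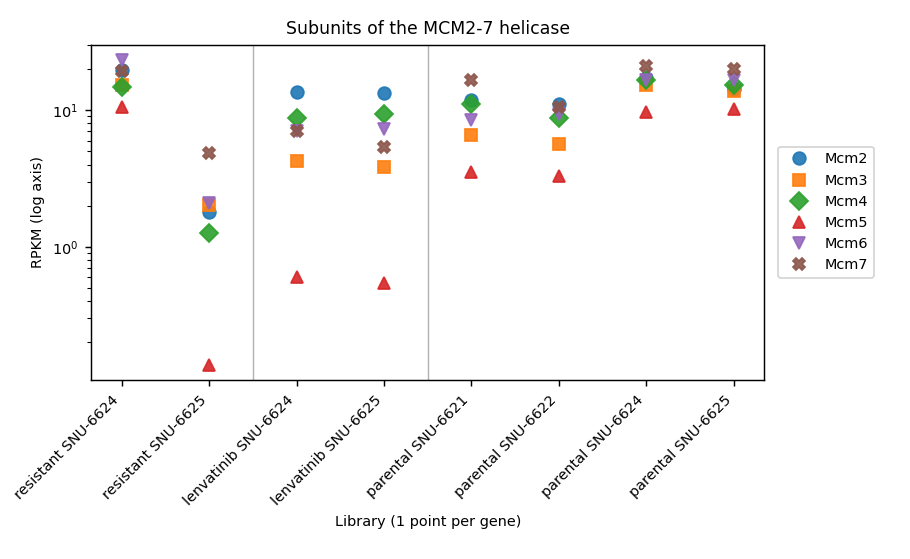
Level of each MCM2-7 subunit (1 point per gene, RPKM on a log axis) in each of the 8 libraries. The points spread over 22.6-fold and 24.7-fold in the lenvatinib libraries and over 2.17-fold and 1.97-fold in the parental libraries of the treated lines, with Mcm5 lowest in all 8.

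Promoters are printed for 3 MCM genes that differed in size of response, and for E2f2, a member called after lenvatinib. Each is 300 bases of RefSeq sequence in build GRCm38.p6, from 250 bases before to 50 after an annotated start, 5′ to 3′ on the strand of the gene. Capitals mark letters of the E2F type searched, which are TTTCCCGC, TTTCGCGC, TTTGCCGC and TTTGGCGC on either strand. The Mcm5 promoter is at chr8:75109259-75109558 on the plus strand, that of Mcm6 at chr1:128359656-128359955 on the minus strand, that of Mcm2 at chr6:88898731-88899030 on the minus strand, and that of E2f2 at chr4:136172024-136172323 on the plus strand.
Mcm5: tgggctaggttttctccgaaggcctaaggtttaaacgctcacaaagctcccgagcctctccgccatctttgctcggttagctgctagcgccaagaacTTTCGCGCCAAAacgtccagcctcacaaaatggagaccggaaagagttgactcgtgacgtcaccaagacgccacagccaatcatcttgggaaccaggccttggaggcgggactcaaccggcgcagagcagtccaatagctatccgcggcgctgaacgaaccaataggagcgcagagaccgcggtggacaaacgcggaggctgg
Mcm6: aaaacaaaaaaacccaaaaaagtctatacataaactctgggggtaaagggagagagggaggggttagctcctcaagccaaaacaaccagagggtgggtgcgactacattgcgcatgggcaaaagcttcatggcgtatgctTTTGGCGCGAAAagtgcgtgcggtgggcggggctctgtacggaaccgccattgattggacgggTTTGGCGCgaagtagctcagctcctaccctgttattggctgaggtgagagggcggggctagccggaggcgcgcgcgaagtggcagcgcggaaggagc
Mcm2: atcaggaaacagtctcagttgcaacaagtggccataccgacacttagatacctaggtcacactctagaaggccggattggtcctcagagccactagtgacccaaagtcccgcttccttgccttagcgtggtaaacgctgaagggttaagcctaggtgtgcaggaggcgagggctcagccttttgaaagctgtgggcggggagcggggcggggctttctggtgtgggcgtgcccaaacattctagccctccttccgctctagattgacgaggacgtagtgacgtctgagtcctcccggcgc
E2f2: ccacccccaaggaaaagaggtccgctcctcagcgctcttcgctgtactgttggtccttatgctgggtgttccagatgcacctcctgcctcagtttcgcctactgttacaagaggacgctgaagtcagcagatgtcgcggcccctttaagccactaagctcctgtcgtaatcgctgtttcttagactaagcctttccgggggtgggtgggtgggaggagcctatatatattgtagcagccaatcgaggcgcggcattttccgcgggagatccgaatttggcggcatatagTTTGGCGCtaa
Mcm5 held 2 matches that overlap each other on opposite strands. Mcm6 held 3, of which 2 overlap, Mcm2 held none in this window, and E2f2 held 1, which lies after the start. A second annotated E2f2 promoter, at chr4:136180532-136180831 on the plus strand, held none and is not printed. The promoter of Tk1, the other member called, at chr11:117825965-117826264 on the minus strand, also held none and is not printed. Of the 39 members with a promoter in the RefSeq table, 16 held a match, or 41.0%, against 2.6% of 27025 genes. The CCAAT box was found in 59.0% of these members and 41.1% of genes, and the letters of the CHR type, TTTGAA or TTCGAA, in 20.5% of members and 21.7% of genes. The median fitted log2 fold change after lenvatinib was -1.62 over the 16 members with an E2F type match and -0.73 over the 23 without one, and the values of both sets spanned nearly the same range, from -5.62 to 0.23 with a match and from -5.92 to 0.19 without. A match is a description of the letters and not a site.

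Helicase activation genes turn the loaded ring into a moving helicase. After lenvatinib, 4 of these 6 genes had negative fitted values, none was called and 1 had an unadjusted p under 0.05. Gins1 and Gins4, subunits of the same GINS complex, stood apart. Gins1 had 3.46 and 0.36 CPM in the resistant libraries, 0.601 and 0.772 CPM in the lenvatinib libraries and 2.28, 1.30, 3.81 and 4.45 CPM in the parental libraries. Gins4 had 23.6 and 11.3 CPM in the resistant libraries, 24.2 and 25.4 CPM in the lenvatinib libraries and 22.7, 15.1, 18.0 and 17.2 CPM in the parental libraries. Gins1 was thus lower after lenvatinib than in every parental line, and Gins4 was above every parental line. The fitted log2 fold changes were -2.67 (edgeR adjusted p = 0.151, SE 0.98) for Gins1 and 0.42 (edgeR adjusted p = 0.356, SE 0.28) for Gins4. Gins2 had 6.05 and 0.655 CPM in the resistant libraries, 2.23 and 2.04 CPM in the lenvatinib libraries and 3.82, 2.24, 4.72 and 7.30 CPM in the parental libraries. Reads of Gins2 may be shared with Gse1, which overlaps it, since the strand setting of the counting is not given.

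Polymerases and the sliding clamp copy the DNA. After lenvatinib, 9 of these 11 genes had negative fitted values, none was called and 3 had an unadjusted p under 0.05. Pole, the catalytic subunit of leading-strand polymerase epsilon, had 17.5 and 0.705 CPM in the resistant libraries, 1.04 and 0.864 CPM in the lenvatinib libraries and 10.6, 8.22, 21.0 and 21.5 CPM in the parental libraries. Its fitted log2 fold change was -4.66 (SE 1.29), with an edgeR adjusted p of 0.0986. Pold1, the catalytic subunit of polymerase delta, which copies the lagging strand, had 31.7 and 22.7 CPM in the resistant libraries, 46.6 and 48.3 CPM in the lenvatinib libraries and 24.8, 24.2, 39.2 and 37.2 CPM in the parental libraries. Pole and Pold1 thus lay on opposite sides of all 4 parental lines in the lenvatinib libraries. Pcna, the clamp that holds polymerases on DNA, was the member with the highest CPM of this role. It had 174.7 and 89.5 CPM in the resistant libraries, 172.3 and 173.6 CPM in the lenvatinib libraries and 78.5, 85.0, 135.4 and 150.4 CPM in the parental libraries. For Pcna the fitted log2 fold change after lenvatinib was 0.19 (edgeR adjusted p = 0.659, SE 0.26), and it ran from -0.07 to 0.48 when single libraries were left out. Within polymerase epsilon, the RPKM ratio of Pole to its accessory subunit Pole2 was 0.387 and 0.0468 in the resistant libraries, 0.0524 and 0.0409 in the lenvatinib libraries and 0.407, 0.432, 0.475 and 0.431 in the parental libraries. The ratio in resistant SNU-6625 was close to that in the lenvatinib libraries, and that in resistant SNU-6624 close to the parental ones.

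Okazaki fragments are trimmed by the flap endonuclease Fen1 and sealed by the ligase Lig1. Fen1 had 18.1 and 5.70 CPM in the resistant libraries, 7.0 and 7.87 CPM in the lenvatinib libraries and 9.94, 11.1, 18.7 and 20.2 CPM in the parental libraries. Lig1 had 37.4 and 2.74 CPM in the resistant libraries, 12.4 and 14.6 CPM in the lenvatinib libraries and 25.4, 22.2, 45.6 and 48.9 CPM in the parental libraries. Both genes were below all 4 parental lines in both lenvatinib libraries, and neither was called, with 1 at an unadjusted p under 0.05.

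Nucleotide supply genes make deoxynucleotides. After lenvatinib, 1 of these 5 genes was called lower, against 4.08% of all genes tested, and all 5 were lower in both lines. Of the 5, 4 had an unadjusted p under 0.05, or 80%, against 31.8% of all genes tested. Tk1 (NCBI gene 21877, mm10 chr11:117815519-117826087), the thymidine kinase of proliferating cells, had 15.7 and 3.98 CPM in the resistant libraries, 1.72 and 1.14 CPM in the lenvatinib libraries and 11, 15.0, 34.4 and 33.5 CPM in the parental libraries. The lenvatinib values were below all 6 others. Tk1 fell after lenvatinib by 4.73 on the log2 scale (edgeR adjusted p = 0.0371, SE 0.53). The call ended when any 1 parental or lenvatinib library was left out and without a filter on low counts. Adjusted p ran up to 0.273 over 18 alternatives, of which 13 kept it under 0.05. The Afmid gene overlaps Tk1, and its counts in the lenvatinib libraries were 1621 and 2007, against 1620 and 1564 in the parental libraries of the same lines. Rrm2, the S phase subunit of ribonucleotide reductase, had 76.0 and 3.13 CPM in the resistant libraries, 5.20 and 6.27 CPM in the lenvatinib libraries and 26.5, 42.3, 104.6 and 96.8 CPM in the parental libraries. Its fitted log2 fold change was -4.17 (edgeR adjusted p = 0.116, SE 1.29). Rrm1, its large partner subunit, had 74.7 and 9.45 CPM in the resistant libraries, 19.9 and 19.8 CPM in the lenvatinib libraries and 48.0, 42.4, 87.7 and 86.6 CPM in the parental libraries. Both subunits were below all 4 parental lines in both lenvatinib libraries. Dut, which removes dUTP, had 28.2 and 12.9 CPM in the resistant libraries, 18.7 and 18.7 CPM in the lenvatinib libraries and 15.9, 13.6, 28.7 and 38.5 CPM in the parental libraries. The lenvatinib values of Dut, and the 8.70 and 10.1 CPM of the thymidylate synthase gene Tyms, lay inside the range of the 4 parental lines.

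Rrm2 and Tk1 have counterparts that cells also use outside S phase, which are not among the 47. Rrm2b, the ribonucleotide reductase subunit that p53 induces, and Tk2, the mitochondrial thymidine kinase, rose after lenvatinib. Rrm2b had 25.6 and 14.8 CPM in the resistant libraries, 85.4 and 81.9 CPM in the lenvatinib libraries and 40.3, 30.2, 29.1 and 29.5 CPM in the parental libraries, a log2 fold change after lenvatinib of 1.43 (edgeR adjusted p = 0.0422, SE 0.20). Tk2 had 26.9 and 16.4 CPM in the resistant libraries, 74.5 and 72.4 CPM in the lenvatinib libraries and 37.0, 37.1, 34.3 and 29.2 CPM in the parental libraries, a log2 fold change of 1.14 (edgeR adjusted p = 0.0429, SE 0.16). Both were highest in the lenvatinib libraries, and both calls ended when a parental or lenvatinib library was left out, with adjusted p up to 0.309 for Rrm2b and 0.322 for Tk2. Of 18 alternatives, 13 kept the call of Rrm2b and 10 that of Tk2. The RPKM ratio of Rrm2 to Rrm2b was 6.16 and 0.44 in the resistant libraries, 0.127 and 0.159 in the lenvatinib libraries and 1.37, 2.91, 7.46 and 6.82 in the parental libraries. That of Tk1 to Tk2 was 0.975 and 0.405 in the resistant libraries, 0.0385 and 0.0263 in the lenvatinib libraries and 0.494, 0.676, 1.68 and 1.92 in the parental libraries. In both pairs the lenvatinib ratios were the lowest of the 8 libraries.

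**Figure D4:**
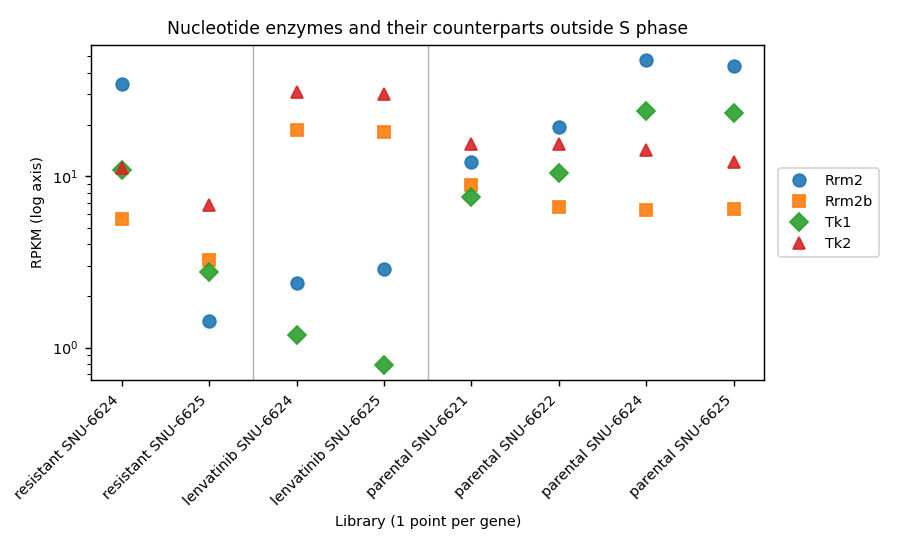
Level of Rrm2 and Tk1 and of their counterparts Rrm2b and Tk2 (1 point per gene, RPKM on a log axis) in each of the 8 libraries. In the lenvatinib libraries Rrm2b and Tk2 lie above Rrm2 and Tk1. The Rrm2 to Rrm2b ratio there is 0.127 and 0.159, against 7.46 and 6.82 in parental SNU-6624 and SNU-6625. Rrm2b also lies above Rrm2 in resistant SNU-6625. Tk2 also lies above Tk1 in both resistant libraries and in parental SNU-6621 and SNU-6622.

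E2F and cyclin E genes control the G1/S transition, some of them by repressing transcription. After lenvatinib, 1 of these 6 genes was called lower, against 4.08% of all genes tested, and all 6 fitted values were negative. Of the 6, 3 had an unadjusted p under 0.05, or 50%, against 31.8% of all genes tested. E2f2 (NCBI gene 242705, mm10 chr4:136172274-136196057), an activating E2F, had 2.61 and 3.31 CPM in the resistant libraries, 0.141 and 0.129 CPM in the lenvatinib libraries and 0.822, 3.98, 5.08 and 8.10 CPM in the parental libraries. In counts these were 132 and 202 in the resistant libraries, 8 and 7 in the lenvatinib libraries and 43, 233, 307 and 397 in the parental libraries. Both lenvatinib libraries were below all others. E2f2 fell after lenvatinib by 5.62 on the log2 scale (edgeR adjusted p = 0.0312, SE 0.45). The call ended when any 1 parental or lenvatinib library was left out. Adjusted p ran up to 0.24 over 18 alternatives, of which 14 kept it under 0.05.

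E2f1, another activating E2F, had 24.5 and 3.69 CPM in the resistant libraries, 19.2 and 20.0 CPM in the lenvatinib libraries and 17.7, 20.6, 18.9 and 25.5 CPM in the parental libraries. Its lenvatinib values lay within the parental range. E2f7 and E2f8 are atypical E2F proteins that repress transcription. E2f7 had 5.16 and 0.164 CPM in the resistant libraries, 0.318 and 0.735 CPM in the lenvatinib libraries and 2.52, 3.18, 7.65 and 11 CPM in the parental libraries. E2f8 had 10.8 and 0.557 CPM in the resistant libraries, 0.265 and 0.405 CPM in the lenvatinib libraries and 7.46, 7.33, 17.8 and 20.4 CPM in the parental libraries. For both repressors the lenvatinib libraries and resistant SNU-6625 were below all other libraries. The fitted log2 fold change after lenvatinib was -4.19 (edgeR adjusted p = 0.154, SE 1.56) for E2f7 and -5.92 (edgeR adjusted p = 0.0777, SE 1.41) for E2f8. Per length, E2f2 was 0.0708 and 0.598 times E2f1 in the resistant libraries, 0.00491 and 0.00429 times in the lenvatinib libraries and 0.031, 0.129, 0.179 and 0.212 times in the parental libraries.

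Chromatin genes of the set act on newly made DNA and histones. Both lenvatinib libraries were below both parental libraries of the same lines for all 4, against 32.4% of all genes tested. None was called, and 1 had an unadjusted p under 0.05. Uhrf1, which brings the maintenance methyltransferase to new DNA, had 39.0 and 3.31 CPM in the resistant libraries, 1.59 and 2.11 CPM in the lenvatinib libraries and 18.3, 20.1, 50 and 52.3 CPM in the parental libraries. Its fitted log2 fold change was -4.85 (edgeR adjusted p = 0.0724, SE 1.10). Chaf1a, the large subunit of chromatin assembly factor CAF-1, had 19.0 and 0.705 CPM in the resistant libraries, 4.01 and 3.79 CPM in the lenvatinib libraries and 9.75, 8.97, 18.5 and 21.1 CPM in the parental libraries. Slbp had 40.4 and 12.0 CPM in the resistant libraries, 28.3 and 26.8 CPM in the lenvatinib libraries and 27.7, 28.2, 37.0 and 35.3 CPM in the parental libraries. Slbp in the lenvatinib libraries was near the level of parental SNU-6621 and SNU-6622, and Uhrf1 was far below it.

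Fork repair and cohesion genes had negative fitted values for all 5 after lenvatinib, with 0 called and 1 at an unadjusted p under 0.05. Exo1, a DNA exonuclease, had 5.96 and 0.0655 CPM in the resistant libraries, 0.937 and 0.625 CPM in the lenvatinib libraries and 2.68, 1.91, 5.41 and 6.55 CPM in the parental libraries. Dscc1, part of an alternative clamp loader used in sister chromatid cohesion, had 2.51 and 0.0655 CPM in the resistant libraries, 0.141 and 0.147 CPM in the lenvatinib libraries and 0.918, 0.82, 3.05 and 2.84 CPM in the parental libraries. The lowest values of Exo1 and Dscc1, in resistant SNU-6625, were 4 counts each, close to the floor of 3 counts. Brca2, which acts in repair of broken DNA, had 11 and 1.31 CPM in the resistant libraries, 7.36 and 8.49 CPM in the lenvatinib libraries and 7.59, 5.94, 10.2 and 11.8 CPM in the parental libraries. Blm, a RecQ helicase, had 8.11 and 2.42 CPM in the resistant libraries, 9.49 and 9.06 CPM in the lenvatinib libraries and 4.42, 4.65, 9.22 and 11 CPM in the parental libraries. Both genes were within 1.5-fold of the parental library of the same line after lenvatinib.

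Genes of the same processes outside the 47 were counted from lists. Of 44 further replication machinery genes, 1 was called higher after lenvatinib, against 1.7% of all genes tested, and 0 lower, against 4.08%. For 12, or 27.3%, the unadjusted p was under 0.05, against 31.8% of all genes tested. The median fitted log2 fold change of this list was -0.19. The called gene was Orc2, an origin recognition complex subunit, which had 35.3 and 24.3 CPM in the resistant libraries, 62 and 60 CPM in the lenvatinib libraries and 26.3, 21.1, 27.9 and 21.2 CPM in the parental libraries, a log2 fold change of 1.24 (edgeR adjusted p = 0.0385, SE 0.15). That call, too, ended when a parental or lenvatinib library was left out, with adjusted p up to 0.3. The lowest of this list was Clspn, a checkpoint adaptor, with 519 and 0 counts in the resistant libraries, 10 and 11 in the lenvatinib libraries and 308, 295, 913 and 901 in the parental libraries. Of 19 further E2F, RB and nucleotide genes, Rrm2b and Tk2 were called higher, against 1.7% of all genes tested, and 0 lower, against 4.08%. For 9 of the 19, or 47.4%, the unadjusted p was under 0.05, against 31.8%, and the median of the list was -0.17. The lowest of these was Ccna2, cyclin A2, with 682 and 30 counts in the resistant libraries, 24 and 23 in the lenvatinib libraries and 941, 1635, 4044 and 3574 in the parental libraries, at a fitted log2 fold change of -7.60 and an edgeR adjusted p of 0.0619. The medians of both lists were nearer to that of all genes than the median of the 47 members was.

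The resistant cultures were compared with the parental organoids of the same lines. In SNU-6625 all 47 members were lower in the resistant library, against 60.6% of all genes tested, and 43 were at least 2-fold lower, against 23.2%. In SNU-6624, 28 members were lower, against 47.8% of all genes tested, and 19 higher, against 51.6%, and 1 was at least 2-fold lower, against 9.47%. The median log2 ratio was -0.14 over the SNU-6624 pair and -2.97 over the SNU-6625 pair, against 0.02 and -0.23 over all genes tested. On TMM-scaled CPM the medians of the members were -0.17 and -2.76. The only member at least 2-fold lower in both lines was Tk1, against 5.7% of all genes tested, with 0.457 times its parental CPM in SNU-6624 and 0.119 times in SNU-6625. With 1 library per line and group, the difference between the lines could not be tested.

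**Figure D5:**
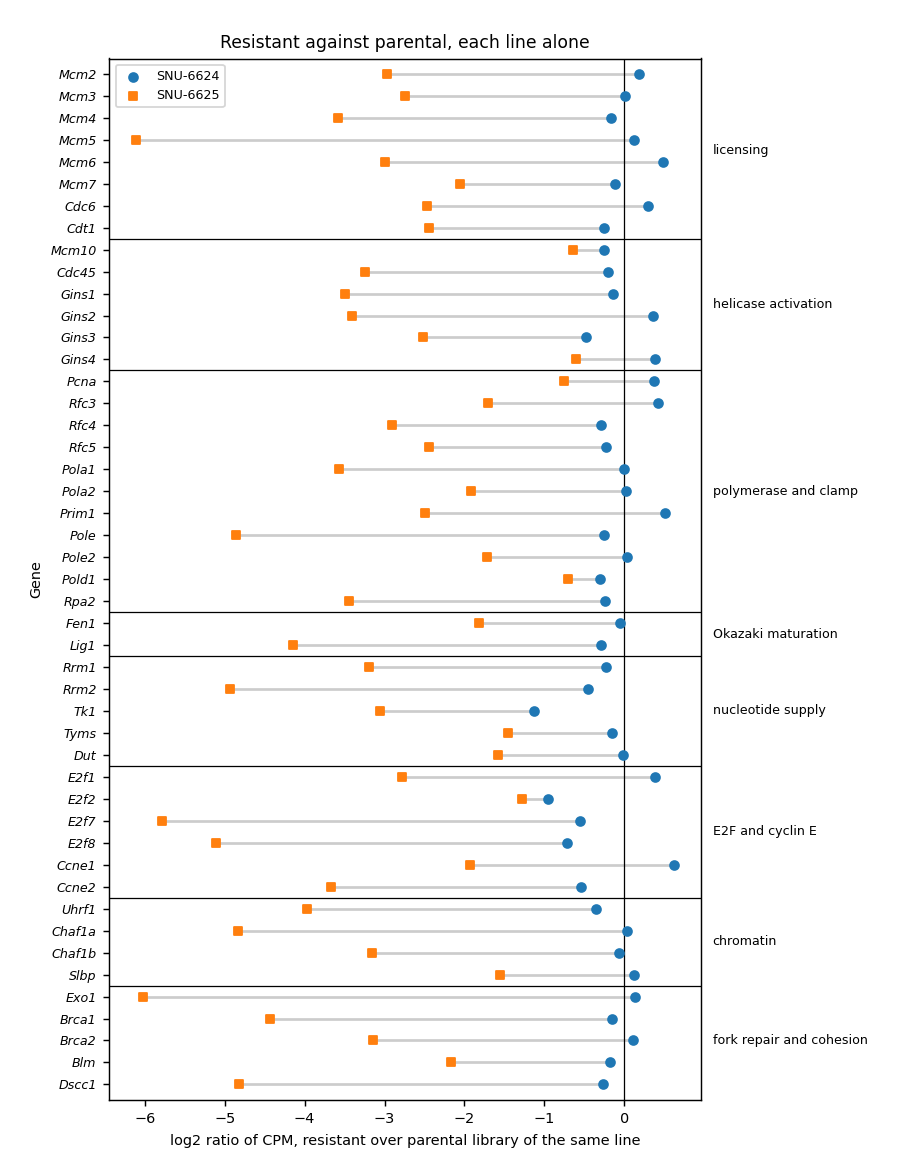
Log2 ratio of CPM, resistant over parental library of the same line, for each member (rows, grouped by role) in SNU-6624 (circles) and SNU-6625 (squares), computed with a prior count of 2. All 47 squares lie below 0, with a median of -2.97, and the circles have a median of -0.14.

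No member was called in this comparison, nor was any of the 17038 genes, so the background was 0.0%. A total of 3 members had an unadjusted p under 0.05, or 6.38%, against 15.9% of all genes tested, and limma-voom and limma-trend also called 0 members. DESeq2 called 1 member lower, Tk1, against 3.33% of all genes tested. The fitted log2 fold changes ran from -2.28 to 0.00, with a median of -1.19, and the smallest adjusted p of edgeR was 0.247, for Tk1. Without resistant SNU-6624, edgeR called 44 members lower, against 16.4% of all genes tested, at a median of -2.77. Without resistant SNU-6625 it called 0 members, against 3.26% of genes in either direction, with 6 members at an unadjusted p under 0.05, against 23% of genes, at a median of -0.17. In each of these fits the lone resistant library is assumed to vary as the other groups do.

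By role, the resistant SNU-6625 library had 46.2 CPM summed over licensing genes, against 342.7 CPM in its parental library. Its nucleotide supply genes summed to 39.3 CPM, against 282.6 CPM in the parental library. By summed CPM, fork repair and cohesion genes stood farthest from parental of the 8 roles, and helicase activation and polymerase genes nearest. The median log2 ratio was -4.43 for fork repair and cohesion, -2.88 for helicase activation, -2.45 for polymerase and clamp and -2.86 for licensing genes, so by median helicase activation genes were not nearer than licensing genes. The fork repair and cohesion genes summed to 4.7 CPM in the resistant library, against 50.7 CPM in the parental one. Helicase activation genes summed to 27.0 CPM in the resistant library, against 62.0 CPM in the parental one. Polymerase and clamp genes summed to 134.1 CPM in the resistant library, against 318.9 CPM in the parental one. Most of these sums in the resistant library came from few genes, with 13.2 CPM for Mcm10, 11.3 CPM for Gins4 and 89.5 CPM for Pcna. The members nearest to parental SNU-6625 were Gins4 at 0.658 times, Mcm10 at 0.642 times, Pold1 at 0.609 times and Pcna at 0.595 times the parental CPM. The farthest were Exo1 at 0.01 times, Mcm5 at 0.0135 times and E2f7 at 0.015 times. In resistant SNU-6624, licensing genes summed to 391.2 CPM, against 365.0 CPM in its parental library, and nucleotide supply genes to 216.2 CPM, against 279.3 CPM.

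Resistant SNU-6625 was the lowest of the 8 libraries for 39 of the 47 members, against 31.2% of all genes tested. The 8 others were Cdc6, Mcm10, Pcna, Tk1, Tyms, E2f2, E2f8 and Uhrf1. For Cdc6, Tk1, E2f2, E2f8 and Uhrf1 both resistant libraries were above both lenvatinib libraries, as were 22.3% of all genes tested. The margin was small for Cdc6, at 1.52 CPM in resistant SNU-6625 and 1.49 CPM in lenvatinib SNU-6624.

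The resistant cultures were also compared with the lenvatinib-treated organoids, a comparison that shares the lenvatinib libraries with the first. E2f2 rose in the resistant cultures by 4.58 on the log2 scale (edgeR adjusted p = 0.0285, SE 0.44) and was the only member called, against 4.14% of all genes tested called higher and 2.08% called lower, so members were not called more often than genes at large. A total of 4 members had an unadjusted p under 0.05, or 8.51%, against 30.4% of all genes tested. Its CPM in the resistant libraries was 18.5 and 25.7 times that in the lenvatinib libraries of the same lines. The call ended when any 1 parental or lenvatinib library was left out and in the fit to 4 libraries, and adjusted p ran up to 0.23 over 18 alternatives. Tk1, at 2.75 (edgeR adjusted p = 0.0514, SE 0.49), was not called, with 9.16 and 3.49 times the lenvatinib CPM. The members as a whole differed in direction by line. The median log2 ratio was 1.31 in SNU-6624, against 0.00 over all genes tested, and 27 members were at least 2-fold higher, against 20.6% of all genes tested. It was -1.28 in SNU-6625, against -0.33 over all genes tested. There 31 members were at least 2-fold lower, against 22.5%, and Tk1 and E2f2 at least 2-fold higher, against 14.4%. On TMM-scaled CPM the median of the members was 1.36 in SNU-6624 and -0.97 in SNU-6625. Without resistant SNU-6624, edgeR called 3 members higher (E2f2, Tk1 and Uhrf1) and 30 lower, against 18.8% and 16.2% of genes. Without resistant SNU-6625 it called 32 higher and Pold1 lower, against 17.5% and 15.5%. Outside the members, Rrm2b (-1.92, edgeR adjusted p = 0.0314), Tk2 (-1.63, edgeR adjusted p = 0.0311) and Orc2 (-0.89, edgeR adjusted p = 0.0488) fell in the resistant cultures relative to lenvatinib, and each of these calls ended when any 1 parental or lenvatinib library was left out. Of 18 alternatives, 14 kept the call of Rrm2b here, 13 that of Tk2 and 8 that of Orc2.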

How the data were processed

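Gene expression was read from whole-number counts per gene, deposited by the authors as raw counts for 45777 genes in each of 8 libraries. Per the labels' protocols, RNA was made into stranded poly(A) libraries. The submitters' processing notes name build mm10, HISAT2 2.1.0, StringTie 2.1.3b, Bowtie2 2.3.4.1, Trimmomatic 0.38 and FastQC 0.11.7. How reads were counted, and with which strand setting, is not given in the sources used here. Reads of overlapping genes on opposite strands may therefore be mixed.

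The quasi-likelihood test of edgeR 4.0.16 (R 4.3.3) was run on the counts of the 6 libraries of the lines found in all 3 groups, with TMM scaling, terms for group and for line, and filterByExpr, which kept 17038 genes. The 3 groups shared 1 estimate of spread, with 2.53 prior and 2 residual degrees of freedom (biological coefficient of variation 0.336). Line pairs the libraries because the same number is the same organoid line. The deviations of libraries of a line from their group means correlated over genes at 0.504 (lenvatinib and parental), 0.288 (resistant and parental) and 0.290 (resistant and lenvatinib). SE is the standard error. P-values measure only the spread left after the terms for group and line, that is, how far group differences disagreed between the 2 lines. That spread is pooled over the 3 groups, resistant libraries included. The steps were run on simulated counts with a fixed spread, no difference between lines and changes in the lenvatinib group only. Such counts hold no resistant lines that disagree, so that run does not check the numbers of calls given here. Ratios by line used a prior count of 2, and RPKM used union exon lengths of GENCODE. Alternatives were DESeq2 1.42.0, limma 3.58.1, other scalings, filters and samples, and each library left out.

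The members, lists and tests were chosen with earlier results of these data known. Values are given for members called in a comparison and, in each role, for those with the highest mean CPM, the lowest and highest fitted value after lenvatinib and the largest gap between lines in the resistant cultures. Cdc6, Mcm2, Mcm10, Pole2, Tyms and the members in the sets by fold were named after their values were seen.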

Additional observations from a re-analysis of the deposited data

Results flagged for a closer look

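All 47 members were examined for a difference in direction between the 2 lines under the same contrast. These differences were not tested, since each line had 1 library per group. Values are log2 ratios of CPM of SNU-6624 minus SNU-6625. For resistant over parental, SNU-6624 was above 0 and SNU-6625 below 0 for Mcm5 (difference 6.23, from 0.12 and -6.11), Exo1 (6.16, from 0.14 and -6.02), Chaf1a (4.87), Gins2 (3.77), Mcm6 (3.48), Brca2 (3.25), E2f1 (3.16), Mcm2 (3.15), Prim1 (3.01), Cdc6 (2.77), Mcm3 (2.76), Ccne1 (2.55), Rfc3 (2.13), Pola2 (1.94), Pole2 (1.75), Slbp (1.68), Pcna (1.12) and Gins4 (0.99). Some values above 0 in SNU-6624 were small, such as 0.01 for Mcm3, 0.02 for Pola2 and 0.03 for Chaf1a and Pole2. For lenvatinib over parental, the same order was seen for Ccne1 (0.79, from 0.24 and -0.55), E2f1 (0.37, from 0.02 and -0.35), Blm (0.32) and Cdt1 (0.30). The opposite order was seen for Gins3 (-1.04, from -0.50 and 0.54) and Mcm10 (-0.19, from -0.02 and 0.17). Of 56 values examined over the 4 parental lines, 0 were flagged by Dixon's rule, which looks for 1 library far from all the others. With 4 libraries this rule cannot speak to lines that split into pairs. Such a split was seen for 42 of the 47 members, with parental SNU-6624 and SNU-6625 both above SNU-6621 and SNU-6622. The absence of flags therefore does not show that the parental lines were alike.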

How the results depend on the processing

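Of the results for single genes under the alternatives, 1327 kept direction and side of the threshold, 131 came under it, 51 lost it and 56 changed sign. Members called for lenvatinib against parental numbered 37 with only the 4 libraries compared, 20 with DESeq2 and 1 without a filter on low counts. DESeq2 gave 1 for resistant against parental. For resistant against lenvatinib there were 0 with the 4 libraries compared, 6 with DESeq2, 2 with limma-trend on log2(CPM + 0.1) and 2 with a minimum of 1 CPM in 2 libraries. The shares of all genes called in these last fits are not given here. The counts therefore do not show whether members were called more often than genes at large. The median for lenvatinib against parental was -1.19 with limma-trend on log2(CPM + 1) and -1.30 without TMM. By line, that median was -1.32 (SNU-6624) and -1.46 (SNU-6625) with TMM and -1.48 (SNU-6625) with RLE size factors, and the members' summed CPM in the lenvatinib libraries averaged 633.2 and 630.2. Without TMM, the median of all genes for resistant against lenvatinib was -0.14, against 0.02 with it, and that of the members was 0.32. Genes called higher and lower were then 427 and 556 for lenvatinib against parental (289 and 696 with TMM) and 596 and 663 for resistant against lenvatinib (706 and 355 with TMM). Both resistant libraries were below both lenvatinib ones for 5 members on CPM. Scaling by TMM or RLE, tried after seeing the data, left 2 such members. These counts stand without the share of all genes and are not read as a result about the members. Without the replicate block (group only), 2, 0 and 1 members were called in the 3 comparisons, the same genes as with line as a term, with medians of -1.31, -0.90 and 0.68. In that fit Slbp was 0.04 for resistant against lenvatinib, and the call of Tk2 after lenvatinib and that of Orc2 for resistant against lenvatinib were lost. Gins4 for resistant against parental was -0.02 with the 4 libraries, -0.01 and -0.02 with limma-trend, -0.07 without TMM, -0.05 with upper quartile scaling and 0.00 with the stricter filter. Lig1 for resistant against lenvatinib was -0.21, -0.13 and -0.23 with the 4 libraries and both limma-trend fits. The cause was not tested.

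Leaving out each library in turn gave 0 to 37 members called for lenvatinib against parental, 0 to 44 for resistant against parental and 0 to 33 for resistant against lenvatinib. The medians ran from -2.0 to -0.44, -2.77 to -0.17 and -1.12 to 1.34 in the same order. Single genes were refitted for 26 of the 47 members and 3 genes outside them. Those whose fitted log2 fold change changed sign when a library was left out follow, with the lowest and highest value. For lenvatinib against parental they were Cdt1 (-0.71 to 0.45), Pcna (-0.07 to 0.48), E2f1 (-0.96 to 0.72), Brca2 (-1.49 to 0.39), Blm (-0.70 to 0.37). For resistant against parental they were Mcm5 (-5.96 to 0.04), Mcm6 (-2.80 to 0.45), Gins2 (-3.10 to 0.13), Gins4 (-0.43 to 0.39), Pcna (-0.51 to 0.29), E2f1 (-2.49 to 0.24), Slbp (-1.35 to 0.08), Brca2 (-2.96 to 0.07). For resistant against lenvatinib they were Mcm5 (-1.74 to 4.25), Mcm6 (-1.48 to 1.75), Gins1 (-0.76 to 2.52), Gins2 (-1.54 to 1.67), Pcna (-0.69 to 0.09), Pole (-0.09 to 4.20), Fen1 (-0.14 to 1.40), Lig1 (-2.08 to 1.60), Rrm1 (-0.76 to 1.95), Rrm2 (-0.60 to 3.80), Dut (-0.35 to 0.74), E2f1 (-2.23 to 0.48), E2f7 (-1.67 to 3.79), Chaf1a (-2.20 to 2.35), Slbp (-0.86 to 0.55), Exo1 (-3.18 to 2.93), Brca2 (-2.39 to 0.63), Dscc1 (-0.79 to 4.12). Each group held 2 lines, and the lowest members, such as Exo1 and Dscc1, had counts near the floor.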
